A study of Caenorhabditis elegans with 12 samples.

Results

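The miR-51 family is a group of *Caenorhabditis elegans* microRNAs (miRNAs) that share a seed, the stretch near the 5′ end that pairs with target mRNAs. Its members were taken by name, as every row of the miRNA class in the deposited small RNA tables that begins with miR-51, miR-53, miR-54, miR-55 or miR-56. This gave 10 rows from 5 precursors, of 296 miRNA rows and 75227 features of all classes. miR-52 was not analysed here.

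A miRNA precursor is a hairpin that Drosha trims in the nucleus and Dicer cuts in the cytoplasm, which leaves a short duplex of a 5p arm and a 3p arm. An Argonaute protein, mainly ALG-1 or ALG-2 in worms, keeps the guide arm, and the other arm is usually degraded. The miR-51 family seed is that of the vertebrate miR-99 and miR-100 family. In worms the members act redundantly, and embryos without the whole family die with a pharynx that is not attached to the mouth. The Fat cadherin gene *cdh-3* is a known target.

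One sequence is shown because it carries the seed that defines the family. It is the sense primer with which the study amplified miR-52, its reference miRNA for quantitative PCR. It is a designed DNA oligo of 30 bases, its 3′ part is the start of miR-52, the locus of miR-52 lies on chromosome IV, and the capitals mark the seed, bases 2 to 8 of the miRNA, in DNA letters.
miR-52 sense primer: acactccagctgggcACCCGTAcatatgtt
The arms that carry this seed are miR-51-5p, miR-53-5p, miR-54-3p, miR-55-3p and miR-56-3p, here called seed arms. They are named from general knowledge of the family, not from a sequence match. The remaining 5 arms, miR-51-3p, miR-53-3p, miR-54-5p, miR-55-5p and miR-56-5p, are called opposite arms.

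In the Ensembl annotation of WBcel235 the precursors analysed here, which do not include *mir-52*, lie at a pair of places. The *mir-51* precursor is at chromosome IV, 11026013 to 11026112, and *mir-53* is 1480 nt away at 11027593 to 11027691, both on the minus strand. On chromosome X, minus strand, *mir-54* is at 13144996 to 13145094, *mir-55* at 13144827 to 13144924 and *mir-56* at 13144691 to 13144787, with 71 nt and 39 nt between neighbours. These 3 precursors lie within the span of the protein-coding gene F09A5.3 on the opposite strand and overlap none of its exons. Small interfering RNAs (siRNAs) assigned to F09A5.3 reached at most 0.336 normalised counts in any library, and those of its 26G class at most 1.49. The annotation also has *mir-55b*, on the plus strand opposite *mir-55*. Its row, which the family rule does not take, held at most 7 counts in any library. The annotated arms are 22 to 25 nt long.

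The study asked what the AT-hook protein ATTF-6 does for piRNAs, the germ line small RNAs bound by PRG-1. It sequenced small RNAs of whole adults grown at 20 °C in 12 libraries. In the depletion experiment, ATTF-6 depleted animals carried GFP::tev::aid::attf-6 on chromosome I, an auxin-inducible degron on the protein, and their control did not. Both carried wrdSi51 on chromosome II, which expresses TIR1 from the *mex-5* promoter, so that degradation was directed to the germ line, and both were moved to 4 mM auxin at the L4 larval stage. In the deletion experiment, ΔPeak1 animals lacked IV 13709294 to 13709476 and ΔPeak2 animals lacked IV 14387943 to 14388536, each an ATTF-6 binding site in a piRNA cluster. They and the deletion control carried attf-6::3xflag on chromosome I and received no auxin. From *mir-51* it is 2683181 nt to the ΔPeak1 interval and 3361830 nt to the ΔPeak2 interval. Each of these 5 groups had 2 libraries treated with PIR-1, a polyphosphatase that lets 5′-monophosphate and 5′-triphosphate RNAs be cloned together. Depleted and control animals of the first experiment also had 1 library each made by CIP-TAP, a phosphatase and then a pyrophosphatase, which favours capped small RNAs. Replicates are separate samples by their labels, which do not say whether they were separate cultures, so p-values measure only the spread between samples.

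Each PIR-1 library held 15454564 to 31931330 summed counts, the depleted CIP-TAP library 6352629 and the control CIP-TAP library 11832193. A normalised count is a count divided by the denominator the authors used, times 1000000, and that denominator ran from 3992305 to 7857706 in the PIR-1 libraries. The counts came to 3.87 to 4.06 times the denominator in the PIR-1 libraries, so a normalised count is not a share of all counts. In CIP-TAP they came to 1.67 times the denominator in the depleted and 2.35 times in the control library. Normalised counts of the 2 cloning methods are thus not on the same scale. In the depletion experiment the germ line signal differed strongly between groups. Type I piRNAs summed to 12227 ± 940 normalised counts in depleted animals and 358096 ± 44567 in control animals (SD, n = 2 each). All 7 germ line and embryo markers of the miR-35 family that were analysed were lower in depleted animals, with summed levels of 10904 to 16155 in depleted and 96713 to 99948 in control libraries and none at 0. In whole animals, fewer cells of a type and less RNA per cell cannot be told apart. Of the markers of other tissues, the neuronal lsy-6-3p averaged 57.4 ± 29.4 normalised counts in depleted and 78.4 ± 1.38 in control animals, and the glial miR-228-5p 6597 ± 490 in depleted and 4558 ± 140 in control animals (SD, n = 2 each). The part of tissue makeup in the results below was not tested.

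The family was abundant and uneven. Over the 10 PIR-1 libraries the 2 most abundant members, miR-55-3p and miR-56-3p, ranked 8 and 12 among the miRNA rows by mean level, whereas miR-53-3p, the least abundant, ranked 162. Counts of members in single PIR-1 libraries ranged between 20 for miR-53-3p and 301398 for miR-55-3p. All 10 rows passed the filter on low values in each experiment.

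**Figure D1:**
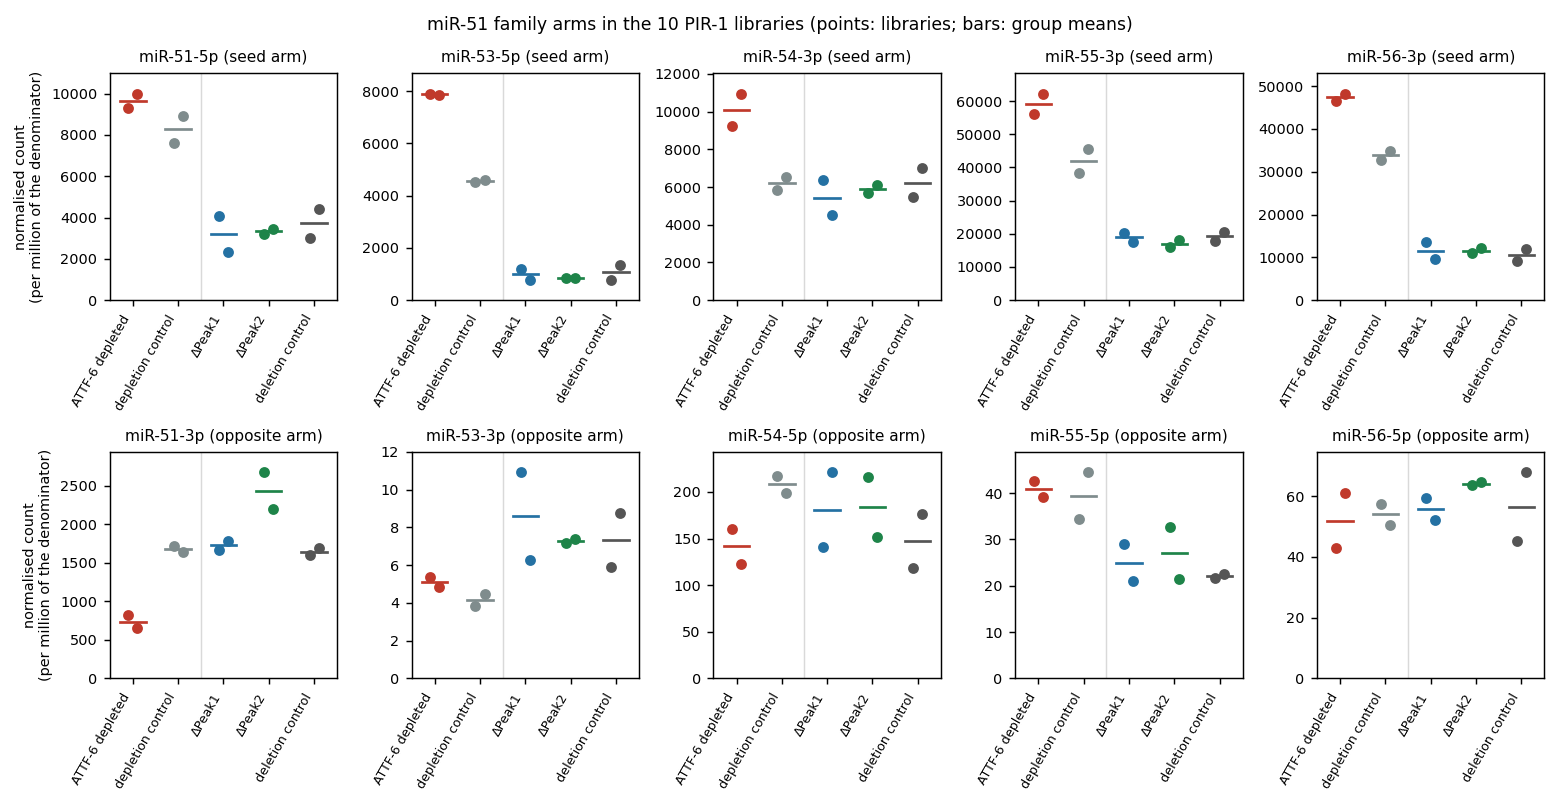
Normalised count of each family arm (y axis, per 1000000 of the denominator, from 0 on a separate scale for each arm) in the 10 PIR-1 libraries, by group (x axis). Points are libraries and bars are group means. The seed arms (top) were higher in depleted than in control libraries, miR-51-3p (bottom left) was lower in depleted libraries, and ΔPeak1 and ΔPeak2 libraries overlapped the deletion control except for miR-51-3p in ΔPeak2.

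With ATTF-6 depleted, the seed arms were moderately more abundant per denominator, and in every precursor the opposite arm made up a smaller share of the reads. The summed seed arms reached 129100 and 139211 normalised counts in depleted libraries, against 88995 and 100482 in control libraries. The groups did not overlap, and the means were 134155 ± 7149 in depleted and 94738 ± 8123 in control animals (SD, n = 2 each), a 1.42-fold difference or 0.50 on the log2 scale. The exact two-sided permutation test gave p = 0.333, the smallest value that 2 libraries against 2 allow. As a share of all miRNA counts, which does not use the denominator, the seed arms made up 6.43% and 6.34% in depleted libraries and 4.93% and 5.51% in control libraries (exact permutation p = 0.333).

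Single members were tested with edgeR over all 33715 features, with Benjamini-Hochberg adjusted p under 0.05 as the call. Of the 10 members, 4 were called higher and 2 lower. Over all features 67.3% were called (12.7% higher and 54.6% lower), and over the 234 miRNA rows tested 42.3% (23.1% higher and 19.2% lower). With TMM scaling 9 members were called higher and 0 lower, where 30.2% of all features and 72.2% of the miRNA rows were called higher. DESeq2 called 7 higher and 0 lower, and its shares over all features are not given here, so that count has no background. The median log2 fold change was -1.39 over all features, 0.14 over the miRNA rows, 0.50 over the 5 seed arms and -0.06 over the 5 opposite arms.

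Among the members on chromosome IV, miR-53-5p showed the largest relative rise of the family. It had 7901 and 7868 normalised counts in depleted libraries, against 4508 and 4588 in control libraries. Replicates lay close together and the groups were well apart, with a log2 fold change of 0.79 ± 0.01 (SE, edgeR adjusted p = 0.000869). Its neighbour miR-51-5p had 9294 and 9989 normalised counts in depleted libraries, against 7617 and 8910 in control libraries. These groups did not overlap, but the log2 fold change of 0.22 ± 0.12 was not called (edgeR adjusted p = 0.377). Both are guide arms of adjacent precursors.

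Among the 5 precursors analysed, the X-linked members supplied most of the reads. miR-55-3p, the most abundant arm, had 56158 and 62208 normalised counts in depleted libraries, against 38357 and 45507 in control libraries (log2 fold change 0.50 ± 0.14, edgeR adjusted p = 0.0292). miR-56-3p had 46504 and 48203 normalised counts in depleted libraries, against 32665 and 34930 in control libraries (log2 fold change 0.49 ± 0.05, edgeR adjusted p = 0.0342). miR-54-3p had 9243 and 10942 normalised counts in depleted libraries, against 5848 and 6545 in control libraries (log2 fold change 0.70 ± 0.15, edgeR adjusted p = 0.00302). All 3 were called higher, and for each the lower depleted library lay above the higher control library. Together they made up 86.9% ± 0.348 of the seed-arm sum in depleted and 86.5% ± 0.135 in control animals (SD, n = 2 each), a share that does not count miR-52.

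The opposite arms included the only members called lower. miR-51-3p had 823 and 653 normalised counts in depleted libraries, against 1722 and 1636 in control libraries. Its depleted mean was 2.28-fold lower, a log2 fold change of -1.19 ± 0.17 (edgeR adjusted p = 1.52e-06), close to the median of all features. miR-54-5p had 160 and 122 normalised counts in depleted libraries, against 217 and 199 in control libraries (log2 fold change -0.56 ± 0.20, edgeR adjusted p = 0.0356). The other 3 opposite arms were not called, and none had more than 61 normalised counts in these 4 libraries. Their log2 fold changes were 0.32 ± 0.13 for miR-53-3p, 0.06 ± 0.19 for miR-55-5p and -0.06 ± 0.27 for miR-56-5p, and the depleted and control libraries overlapped for miR-55-5p and miR-56-5p.

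The calls of these opposite arms depend on the scaling, and the direction of miR-54-5p and miR-56-5p turns with it. With TMM scaling, which sets the bulk of features to no change and moves the median of all features to -0.28, all 5 seed arms were called higher (median 1.64) and so were 4 of the 5 opposite arms (median over the 5 of 1.09). Under that scaling 30.2% of all features and 72.2% of the miRNA rows were called higher, and 38.3% of all features and 8.97% of the miRNA rows lower. By TMM, miR-51-3p was at -0.06 (edgeR adjusted p = 0.774) and miR-54-5p turned to 0.57 (edgeR adjusted p = 0.00399). Over all alternatives the adjusted p (edgeR or DESeq2) ran from 2.60e-13 to 0.774 for miR-51-3p and from 0.00121 to 0.295 for miR-54-5p. When scaled to summed miRNA counts, 1 seed arm, miR-53-5p, was called higher (median of the 5 seed arms 0.29). miR-51-3p and miR-54-5p were called lower, and miR-55-5p was at -0.15, not called. That is 1 of 10 members higher and 2 lower, beside 28 of the 234 miRNA rows higher and 53 lower. These shares were close, so under this scaling the number of calls did not set the family apart from other miRNAs. Leaving out control replicate 1 or control replicate 2 left only the call of miR-51-3p, and leaving out depleted replicate 2 left 3 calls.

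**Figure D2:**
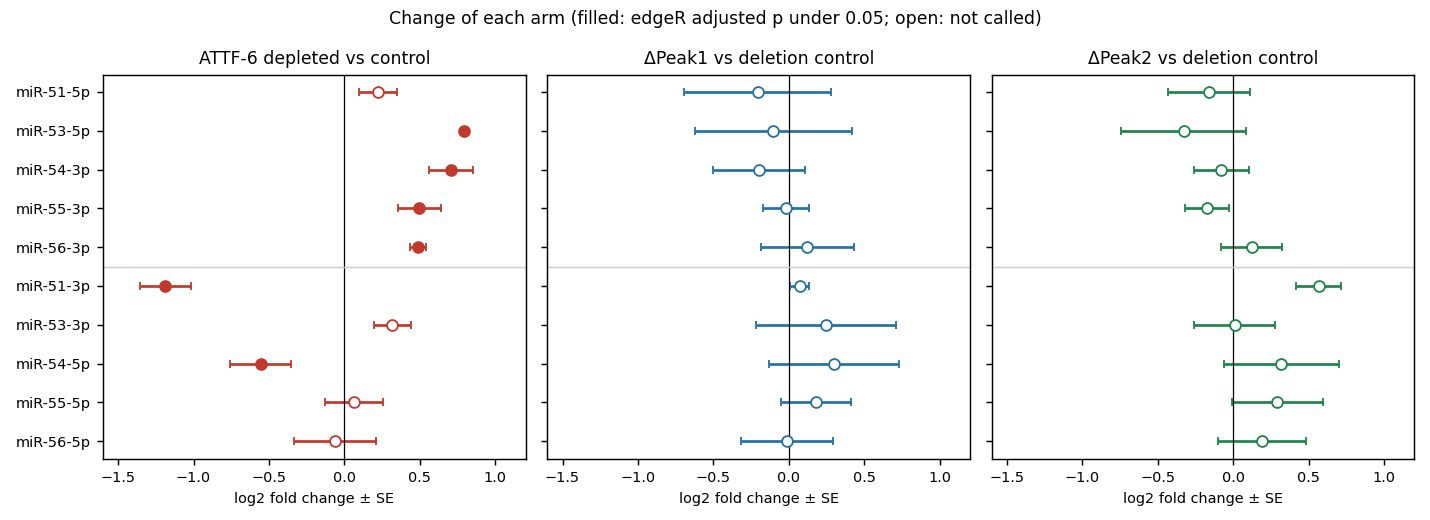
Log2 fold change of each family arm with its SE (x axis), seed arms above the grey line and opposite arms under it, for ATTF-6 depleted against control, ΔPeak1 against deletion control and ΔPeak2 against deletion control (n = 2 libraries each). Filled points passed edgeR at an adjusted p under 0.05; 6 did in the depletion and none in the deletions.

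The balance between both arms of a precursor needs no library scaling, because both arms are read from the same library. All 5 precursors had a smaller share of the opposite arm in depleted than in control animals, with no overlap between libraries. This was not set beside other miRNA precursors, so it is not known to be particular to the family. For *mir-51* the opposite arm made up 8.14% and 6.13% of both arms in depleted libraries and 18.4% and 15.5% in control libraries. For *mir-54* it was 1.71% and 1.11% in depleted libraries and 3.59% and 2.95% in control libraries. These were the 2 precursors with the largest opposite-arm share. In the other 3 the opposite arm was under 0.2% of the reads. It was 0.0647% ± 0.00454 in depleted and 0.0912% ± 0.00937 in control animals for *mir-53* (SD, n = 2 each). That share rests on 26 and 20 counts of miR-53-3p in depleted libraries and 30 and 20 in control libraries. Their counting intervals overlapped, and miR-53-3p itself was not called lower. For *mir-55* the opposite arm was 0.0694% ± 0.00899 in depleted and 0.0936% ± 0.00579 in control animals. For *mir-56* it was 0.109% ± 0.0244 in depleted and 0.160% ± 0.0218 in control animals (SD, n = 2 each). The exact permutation p was 0.333, the smallest possible, for each precursor. Groups of 2 libraries that do not differ lack overlap with that same probability, so these shares are description only. Over the family, opposite arms were 0.727% ± 0.139 of member counts in depleted and 2.06% ± 0.245 in control animals (SD, n = 2 each), or 2.84-fold lower in depleted animals, and *mir-51* supplied most of them.

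**Figure D3:**
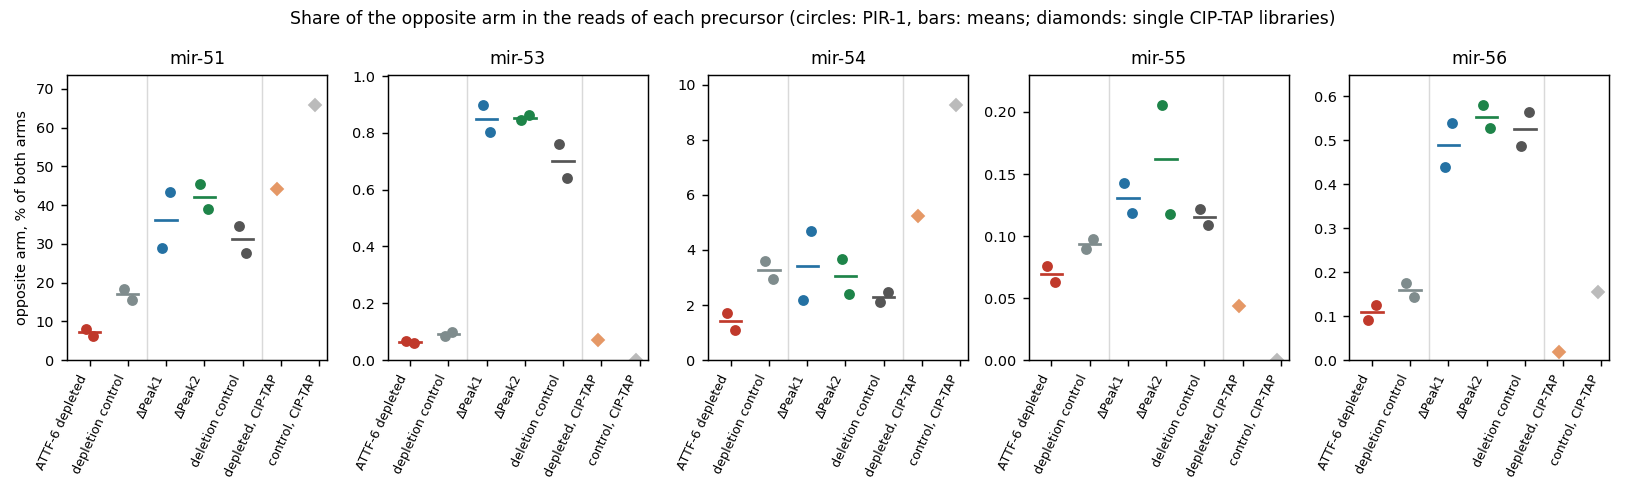
Opposite arm as a percentage of both arms (y axis, from 0 on a separate scale for each precursor) in each library, by group (x axis). Circles are PIR-1 libraries with bars at group means, and diamonds are the single CIP-TAP libraries. Depleted libraries lay below control libraries for all 5 precursors in PIR-1 data, and the *mir-51* share ran from 6.13% to 45.4% over the 10 PIR-1 libraries.

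Set beside other miRNA families, the miR-51 family kept a ratio to let-7 that overlapped between groups, whereas its ratio to miR-35 did not. The let-7 family, which times larval development, summed to 102681 ± 3502 normalised counts in depleted and 76125 ± 2374 in control animals (SD, n = 2 each), a log2 ratio of 0.43. The log2 ratio of all miR-51 family arms to the let-7 family was 0.40 ± 0.03 in depleted and 0.34 ± 0.17 in control animals, and the libraries overlapped. Relative to the miR-58 family, the largest by counts, it was -3.15 ± 0.06 in depleted and -3.49 ± 0.11 in control animals, with no overlap. Relative to the miR-35 family of the germ line and embryo it was 3.34 ± 0.47 in depleted and -0.04 ± 0.15 in control animals, a difference of 3.38. Exact permutation p-values were 1 for let-7 and 0.333 for the other comparisons.

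In the binding-site deletions the seed-arm sum overlapped the deletion control, and no member was called. The sum was 45447 and 34821 normalised counts in ΔPeak1 and 36553 and 40678 in ΔPeak2, against 36252 and 45360 in the deletion control. The ΔPeak1 libraries and the control libraries overlapped, with means of 40134 ± 7514 in ΔPeak1 and 40806 ± 6440 in the control (SD, n = 2 each, exact permutation p = 1). The ΔPeak2 mean was 38615 ± 2917 and its libraries also lay within the range of the control (exact permutation p = 1). By edgeR, 0 of 10 members were called in ΔPeak1, where 0.149% of all 31462 features were, and 0 of 10 in ΔPeak2, where 0.308% were. At an unadjusted edgeR p under 0.05 these counts were 0 members in ΔPeak1, beside 1629 of the 31462 features, and 1 member in ΔPeak2, beside 2977. DESeq2 called 0 members in ΔPeak1 and 1 in ΔPeak2, and its shares over all features are not given here. Both contrasts share the deletion control libraries.

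The seed arms overlapped the control throughout. miR-55-3p had 20286 and 17588 normalised counts in ΔPeak1 and 15888 and 18101 in ΔPeak2, against 17727 and 20634 in the deletion control. miR-56-3p had 13486 and 9615 in ΔPeak1 and 10911 and 12185 in ΔPeak2, against 9247 and 11980 in the deletion control. miR-54-3p had 6377 and 4502 in ΔPeak1 and 5694 and 6110 in ΔPeak2, against 5483 and 6982 in the deletion control. In each of these X-linked arms the second ΔPeak1 library was the lower of its pair, and the first deletion control library was the lower of its pair.

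The members on the same chromosome as the deletions gave a like picture. miR-51-5p had 4092 and 2340 normalised counts in ΔPeak1 and 3217 and 3430 in ΔPeak2, against 3027 and 4402 in the deletion control. miR-53-5p had 1207 and 776 in ΔPeak1 and 842 and 853 in ΔPeak2, against 769 and 1362 in the deletion control. Replicates of 1 group differed by more than the group means did. Over all 10 members the log2 fold changes lay between -0.21 and 0.30 in ΔPeak1 and between -0.33 and 0.57 in ΔPeak2.

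The upper end of the ΔPeak2 range was miR-51-3p, the only member whose ΔPeak2 and deletion control libraries did not overlap. It had 2678 and 2195 normalised counts in ΔPeak2 and 1670 and 1790 in ΔPeak1, against 1601 and 1691 in the deletion control. The ΔPeak2 log2 fold change of 0.57 ± 0.15 was not called (edgeR adjusted p = 0.107). It was called with no filter on low values (edgeR adjusted p = 4.94e-05) and by DESeq2 (adjusted p = 0.00669). ΔPeak1 replicates 1 and 2 are outside this contrast but enter the filter on low values and the estimate of the spread. With 1 or the other left out, miR-51-3p stayed at a log2 fold change of 0.57. Over all alternatives its adjusted p (edgeR or DESeq2) ran from 4.94e-05 to 0.863. The opposite arm made up 45.4% and 39.0% of both *mir-51* arms in ΔPeak2, against 34.6% and 27.8% in the deletion control (exact permutation p = 0.333).

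Other shares within the family also differed without overlap between libraries, each at the smallest exact permutation p of 0.333. Groups of 2 libraries that do not differ lack overlap with that same probability, so these shares are description only. Opposite arms made up 7.58% and 5.66% of member counts in ΔPeak2, against 4.71% and 4.16% in the deletion control, and their sum was 2997 and 2440 normalised counts in ΔPeak2, against 1793 and 1967 in the deletion control. For *mir-53* the opposite arm was 0.898% and 0.803% of both arms in ΔPeak1 and 0.844% and 0.862% in ΔPeak2, against 0.761% and 0.640% in the deletion control. The opposite-arm shares of *mir-54*, *mir-55* and *mir-56* overlapped the control in both deletions, as did that of *mir-51* in ΔPeak1. Within the seed-arm sum, miR-56-3p made up 29.7% and 27.6% in ΔPeak1 and 29.9% and 30.0% in ΔPeak2, against 25.5% and 26.4% in the deletion control. miR-54-3p made up 14.0% and 12.9% in ΔPeak1, against 15.1% and 15.4% in the deletion control. miR-55-3p made up 43.5% and 44.5% in ΔPeak2, against 48.9% and 45.5% in the deletion control. The shares of miR-51-5p and miR-53-5p overlapped the control in both deletions, as did those of miR-54-3p in ΔPeak2 and miR-55-3p in ΔPeak1.

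Family levels differed between both control groups. Seed-arm sums were at least 88995 normalised counts in the depletion control and at most 45360 in the deletion control. A step of this direction was not particular to the family. The let-7 family averaged 76125 normalised counts in the depletion control and 42149 in the deletion control. The miR-58 family and the sum of all miRNA rows were also higher in the depletion control. The miR-35 family went the other way, with 99048 in the depletion control and 168797 in the deletion control. The depletion control mean was 4.27-fold that of the deletion control for miR-53-5p, 3.18-fold for miR-56-3p, 2.22-fold for miR-51-5p and 2.19-fold for miR-55-3p. It was 0.994-fold for miR-54-3p, 1.02-fold for miR-51-3p and 0.955-fold for miR-56-5p, and for these 3 arms the libraries overlapped. Of the other opposite arms, miR-53-3p was at 0.567-fold, lower in the depletion control, miR-54-5p at 1.41-fold and miR-55-5p at 1.79-fold, each without overlap. The genotype, the auxin and the experiment differ between these groups and cannot be told apart, so no test was made. The make-up of the seed-arm sum differed accordingly, as the plot of its composition shows. miR-54-3p made up 6.51% to 7.86% of it in the depletion experiment and 12.9% to 15.6% in the deletion experiment. miR-53-5p made up 4.57% to 6.12% in the depletion experiment and 2.10% to 3.00% in the deletion experiment. miR-55-3p stayed the leading arm, at 43.1% to 50.5% in all 10 PIR-1 libraries.

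**Figure D4:**
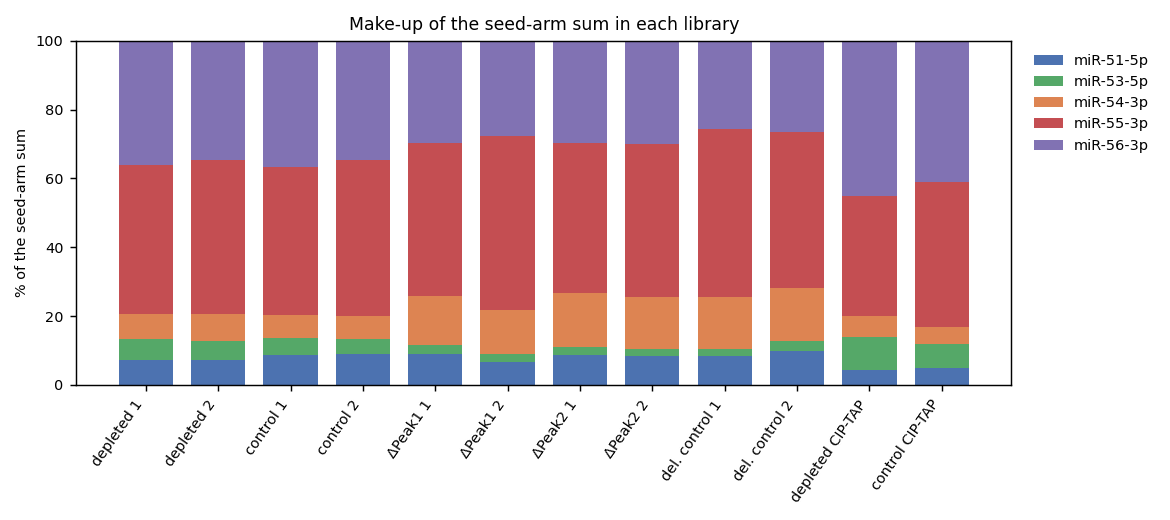
Share of each seed arm in the seed-arm sum (y axis, %, stacked to 100) in each library (x axis). miR-55-3p and miR-56-3p were the main parts of every library, and miR-54-3p was a larger part in the 6 deletion experiment libraries (12.9% to 15.6%) than in the 4 PIR-1 libraries of the depletion experiment (6.51% to 7.86%).

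Of 147 other miRNA rows with a mean of at least 10 normalised counts, those most like the seed-arm sum over the 10 PIR-1 libraries were miR-1020-5p, miR-240-3p, miR-232-3p, miR-238-3p and miR-239a-3p. Their Pearson correlations of log2 values with it were 0.989 to 0.995. The libraries form 2 separate sets, the depletion experiment above the deletion experiment, so these values mainly describe the step between experiments.

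The CIP-TAP libraries contained far less of the family per denominator, but more of it per miRNA count. Of all miRNA counts, the seed arms made up 17.1% in the depleted and 12.8% in the control CIP-TAP library. In PIR-1 they made up 6.43% and 6.34% in depleted and 4.93% and 5.51% in control libraries. Dicer products carry a 5′ monophosphate, which the phosphatase step removes and the pyrophosphatase step does not restore. The seed-arm sum was 15523 normalised counts in the depleted library (95% exact Poisson interval 15398 to 15648) and 6855 in the control library (6783 to 6928). With 1 library per group no test was made, and the intervals cover counting error only. The PIR-1 mean was 8.64 times the CIP-TAP value in depleted and 13.8 times in control animals. For all miRNA rows these factors were 23.1 in depleted and 33.9 in control animals, and for miR-51-3p 1.41 in depleted and 2.62 in control animals.

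Between the CIP-TAP libraries the seed-arm sum was 2.26 times as high in the depleted as in the control library, while all miRNA rows together were 1.69 times as high. The largest ratio among seed arms was that of miR-53-5p, with 1506 normalised counts in the depleted and 490 in the control library. The opposite arm of *mir-51* outnumbered its seed arm in the control library. It made up 44.1% of both arms in the depleted library (95% exact binomial interval 42.7% to 45.6%) and 65.8% in the control library (64.5% to 67.1%). For *mir-54* the share was 5.22% in the depleted library (4.54% to 5.97%) and 9.25% in the control library (7.97% to 10.7%). The other opposite arms were near the limit of detection. miR-53-3p had 4 counts in the depleted and 0 in the control library, and miR-55-5p had 9 in the depleted and 0 in the control library. For 0 counts in the control library the 95% exact Poisson interval reaches up to 0.732 normalised counts. miR-56-5p had 5 counts in the depleted and 22 in the control library.

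Small RNA libraries do not measure the mRNAs of the miRNA pathway, but they hold siRNAs antisense to them. siRNAs against all 12 pathway genes examined, among them *drsh-1* (Drosha), *dcr-1* (Dicer), *alg-1* and *alg-2*, were called lower in depleted animals, at a median log2 fold change of -1.97, beside 54.6% of all features. With TMM scaling 8 of 12 were called lower, beside 38.3% of all features. siRNAs against *cdh-3* averaged 0.879 normalised counts in depleted and 5.21 in control animals (log2 fold change -2.53 ± 0.17, edgeR adjusted p = 1.05e-05). The depleted libraries held 1.03 and 0.726, the latter equal to 3 counts, so this rests on very few reads. With TMM scaling the log2 fold change of *cdh-3* siRNAs was -1.42 (edgeR adjusted p = 0.0236). In ΔPeak1 and ΔPeak2 0 of 12 were called.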

How the data were processed

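Whole adult small RNA was sequenced in 12 libraries. The authors trimmed reads with Trim Galore, mapped them with Bowtie to the genome from WormBase, and assigned them to features by position and strand. The deposited estimated counts per feature were whole for all family members. The authors also deposited a normalised signal, the count divided by 1 constant per library, from which the denominator was recovered. Here counts were rounded and tested with edgeR 4.0.16 (quasi-likelihood F test, R 4.3.3) with that denominator as library size, a filter that kept features averaging 0.5 or more normalised counts, and adjusted p under 0.05. The depletion fit held 4 libraries and the deletion fit 6. The SE came from the spread between libraries of log2(normalised count + 0.5), not from the fit. Sums and shares used exact two-sided permutation tests, with a smallest p of 0.333. The code was tested on simulated data. Alternatives were TMM, scaling to miRNA counts, other filters, DESeq2 1.42.0, a replicate block, all 10 PIR-1 libraries in 1 fit, and leaving out each library. No molecular identifiers marked PCR copies, so intervals cover counting error only. Seed arms were assigned from general knowledge because mature sequences were not used here. Seed arms were named in every library, opposite arms in full where called in any fit. The members and lists were chosen with earlier results of these data known.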

Additional observations from a re-analysis of the deposited data

Results flagged for a closer look

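miR-54-5p was set apart because, per denominator, its libraries moved in opposite directions under the 2 cloning methods. Its log2 ratio of depleted over control was -0.56 between the PIR-1 means and 0.63 between the single CIP-TAP libraries, where it had 201 counts in the depleted and 172 in the control library. The difference between the methods was not tested. Scaled to summed miRNA counts, both methods were lower in depleted animals. The PIR-1 log2 fold change was then -0.76 (edgeR adjusted p = 0.0161), and the depleted CIP-TAP value was 0.914 times the control value. The share of the opposite arm in *mir-54* was also lower in depleted animals by both methods. It was 1.41% against 3.27% in the PIR-1 means, and 5.22% against 9.25% in CIP-TAP. With TMM scaling the PIR-1 log2 fold change was 0.57.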

How the results depend on the processing

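In the depletion, 6 members were called. The number was 9 with TMM and 7 with DESeq2, all higher, 5 with no filter, 6 with a stricter filter, 6 with all 10 PIR-1 libraries and 3 when scaled to summed miRNA counts, and it ran from 1 to 5 when single libraries were left out. The fit that called 6 members called 67.3% of all features. With TMM 30.2% of all features and 72.2% of the miRNA rows were called higher. When scaled to summed miRNA counts, 9.82% of all features were called higher and 57.2% lower. Of the 234 miRNA rows 28 were then called higher and 53 lower. For the other settings the shares over all features are not given here, so those counts have no background. The cause of the differences in number was not tested. The log2 fold change of miR-54-5p was 0.57 with TMM and 0.48 with DESeq2, and that of miR-56-5p 1.09 with TMM and 1.03 with DESeq2. miR-55-5p was at -0.15 when scaled to miRNA counts. With single libraries left out, miR-55-5p ran from -0.12 to 0.25 and miR-56-5p from -0.34 to 0.17. The seed-arm sum stayed between 0.42 and 0.59 on the log2 scale without single libraries. Without single libraries it ran from -0.23 to 0.16 in ΔPeak1 and from -0.23 to 0.091 in ΔPeak2. The number of members called in ΔPeak2 was 1 with no filter and 1 with DESeq2, and 0 to 1 without single libraries. The CIP-TAP log2 ratio of the seed-arm sum was 1.18, against 1.67 when scaled to summed counts and 0.42 when scaled to miRNA counts. Labels number the replicates without saying what a number shares, and deviations of same-numbered libraries correlated at 0.14 in the depletion and at -0.054 and -0.042 in ΔPeak1 and ΔPeak2, so the libraries were not taken as paired. With the replicate block 6 members were called in the depletion and 0 in each deletion. A share of miR-52-5p in the family was not run. With 2 libraries a group, differences between single members smaller than the replicate spread were not detectable.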
